A study of Homo sapiens with 2 samples.

Results

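Androgen receptor target genes are described here in C4-2B cells. The list held 41 genes known to be controlled by the androgen receptor, and they were found by gene symbol among the 60671 genes of the count table. All 41 symbols were present, each with 1 identifier, and all 41 had at least 10 counts over both libraries, the minimum that 23446 genes met. The rule used gene symbols and no measured value, but the list itself was chosen with earlier results of these data known.

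Poly-A RNA of C4-2B cells, an established human cell line, was sequenced after vehicle or after 1 µM (R)-9b overnight, with 1 library per condition. (R)-9b, also called dz67 in the labels, is a small-molecule inhibitor of the tyrosine kinase ACK1, encoded by TNK2. No gene was deleted or added in either culture, and both were grown in medium with fetal bovine serum, which carries steroid hormones. The question was how the RNA of prostate cancer cells changes when ACK1 is inhibited. A single line treated at 1 dose and time limits what the comparison can stand for. With 1 culture per condition, the spread between cultures could not be estimated and no p-value is given. Differences between the cultures and those due to (R)-9b cannot be told apart.

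The androgen receptor is a nuclear receptor that moves to DNA when it binds testosterone or dihydrotestosterone, where it recruits coactivators to enhancers and promoters. In luminal cells of the prostate it drives secreted proteases, lipid and sugar enzymes, and transporters, and prostate cancer that resists castration commonly retains this programme. ACK1 is known to phosphorylate the androgen receptor.

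The vehicle library held 65207444 counts and the (R)-9b library 57653965, and mitochondrially encoded genes took 1.49% and 9.54% of them. The labels call the cell type breast cancer, whereas the paper names C4-2B as a castration-resistant prostate cancer line. Of 7 prostate luminal markers which include the target genes TMPRSS2 and SLC45A3, all were abundant in both libraries. Their level, as counts scaled to library size (CPM), summed to 4418 in vehicle and 8751 in (R)-9b. Of 7 breast markers, oestrogen receptor ESR1 had 2 counts in each library and mammaglobin SCGB2A2 had 0 in both, which allows up to 3 counts. The breast list summed to 3.74 and 12.6 CPM, of which PIP, with 124 and 595 counts, made up 1.86 and 10.5 CPM. The summed level of 5 fibroblast markers was 17.3 and 36.6 CPM, nearly all COL1A1, that of 5 immune markers 0.0901 and 0.248 CPM with PTPRC at 0, and that of 3 endothelial markers 11.7 and 7.65 CPM, mostly VWF. In bulk RNA, fewer cells expressing a gene and less of its RNA per cell cannot be told apart.

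The promoters of 5 target genes are given first because they span the range of responses: STEAP4, SLC45A3 and FKBP5 were among the highest in (R)-9b, PMEPA1 was the called gene nearest to the limit, and INPP4B was the only one called lower. Each sequence runs from 250 bases before to 50 after a RefSeq start site on GRCh38.p14, 5′ to 3′ on the gene's strand, and all 5 genes lie on the minus strand. Capitals mark the hexamer AGAACA or its reverse complement TGTTCT, the conserved arm of the androgen response element.
STEAP4, chr7:88306845-88307144: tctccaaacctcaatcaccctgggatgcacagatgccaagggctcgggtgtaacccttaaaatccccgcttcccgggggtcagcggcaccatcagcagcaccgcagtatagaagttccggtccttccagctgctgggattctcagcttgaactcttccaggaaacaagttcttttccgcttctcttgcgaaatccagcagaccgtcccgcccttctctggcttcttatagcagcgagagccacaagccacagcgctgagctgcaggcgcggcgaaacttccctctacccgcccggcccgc
SLC45A3, chr1:205680460-205680759: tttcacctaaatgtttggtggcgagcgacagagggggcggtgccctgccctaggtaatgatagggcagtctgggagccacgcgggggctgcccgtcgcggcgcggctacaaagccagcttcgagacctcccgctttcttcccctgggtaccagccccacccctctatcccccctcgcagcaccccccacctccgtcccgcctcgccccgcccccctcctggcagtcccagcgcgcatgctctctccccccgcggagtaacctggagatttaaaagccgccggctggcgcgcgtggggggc
FKBP5 proximal start, chr6:35688866-35689165: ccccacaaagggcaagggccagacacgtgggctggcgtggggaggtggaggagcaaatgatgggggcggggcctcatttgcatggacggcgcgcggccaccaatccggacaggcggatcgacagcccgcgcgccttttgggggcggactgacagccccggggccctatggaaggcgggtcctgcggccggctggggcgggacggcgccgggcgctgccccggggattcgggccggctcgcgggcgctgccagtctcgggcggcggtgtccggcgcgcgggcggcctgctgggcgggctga
FKBP5 distal start, chr6:35728534-35728833: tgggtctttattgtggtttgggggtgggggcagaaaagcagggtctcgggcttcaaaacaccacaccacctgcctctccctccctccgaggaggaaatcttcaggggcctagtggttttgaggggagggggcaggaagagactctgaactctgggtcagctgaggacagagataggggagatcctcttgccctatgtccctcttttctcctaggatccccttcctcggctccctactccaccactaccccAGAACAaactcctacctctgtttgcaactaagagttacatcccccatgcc
PMEPA1, chr20:57710528-57710827: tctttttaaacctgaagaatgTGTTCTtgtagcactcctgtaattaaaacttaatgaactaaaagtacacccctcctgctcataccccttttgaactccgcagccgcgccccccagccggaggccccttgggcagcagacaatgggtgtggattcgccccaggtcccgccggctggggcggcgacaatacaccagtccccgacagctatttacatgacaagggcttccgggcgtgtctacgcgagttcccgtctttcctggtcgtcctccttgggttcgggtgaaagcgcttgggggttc
INPP4B, chr4:142846252-142846551: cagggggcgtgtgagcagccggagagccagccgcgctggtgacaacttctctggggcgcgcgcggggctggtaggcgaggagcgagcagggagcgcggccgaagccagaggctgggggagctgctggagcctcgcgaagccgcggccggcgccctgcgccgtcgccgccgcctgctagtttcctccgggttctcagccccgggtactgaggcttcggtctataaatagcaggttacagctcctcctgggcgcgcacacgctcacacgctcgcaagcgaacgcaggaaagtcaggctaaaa

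The hexamer was found on either strand in 7 of 57 promoter windows of the target genes (12.3%), beside 5192 of 35116 windows of all genes (14.8%). The full element, AGAACA, 3 bases of any kind, then TGTTCT, was found in 0 of the 57 windows and in 1 of all windows. FKBP5, IQGAP2, PLA2G2A, PMEPA1 and TSC22D1 had a window with the hexamer, 31 target genes had a window and 10 had none. Windows of a gene can overlap, and the PLA2G2A windows with the hexamer hold the same copy of it. No match says only that these letters are not in the 300 bases searched, and androgen receptor sites are known to lie mostly in distant enhancers. In FKBP5 the hexamer began at base 1 of the distal transcript, whereas transcripts starting within 100 bases of the proximal start took 100% of the FKBP5 transcript estimates in vehicle and 98.8% in (R)-9b. Transcripts starting near the distal site had an estimate of 0 in vehicle and 94.8 in (R)-9b, or 1.18% of the gene. In PMEPA1 the window shown has the hexamer from 229 bases before the start, and the transcripts starting there took 10.8% and 10.1% of the gene's estimates. The single SLC45A3 window belonged to the start of SLC45A3-201, with 98.9% and 97.5% of its gene's estimates. INPP4B had several windows, and transcripts starting within 100 bases of the start shown took 32.5% and 30.5% of its estimates. The median GC content was 64.3% over target gene windows and 58.7% over all windows.

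In the comparison of the libraries, 16 of the 41 target genes were higher in (R)-9b, 1 was lower and 24 were neither. A gene was called higher when the whole 95% interval of its ratio, (R)-9b over vehicle, lay above 1.5, and lower when it lay below 1/1.5. Thus 39.0% of target genes were higher, beside 8.71% of all genes tested, and 2.44% were lower, beside 7.74%. The ratio compares counts scaled by the trimmed mean of M values (TMM), and the interval covers counting error only, since reads carried no molecular identifiers and copies made by PCR are not independent molecules. The median log2 ratio was 0.34 over the target genes and -0.005 over all genes tested. The 16 genes had ratios from 1.55 for PMEPA1 to 10.0 for STEAP4.

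At the stricter limit of 2-fold, STEAP4, SLC45A3, ELL2, FKBP5 and SORD were higher, 5 of 41, beside 4.2% of all genes, and 0 of 41 were lower, beside 3.44%. Against a ratio of 1, the intervals of 30 target genes lay above it, beside 29.8% of all genes, and those of 9 lay below it, beside 31.1%. Only CAMKK2 and PTGER4 had an interval that held 1. With a coefficient of variation of 0.1 per library added to the interval, 8 of 41 lay above 1.5, beside 5.35% of all genes, and 0 lay below 1/1.5, beside 4.25%. Many target genes were deeply counted: 34 of the 41 had at least 1000 counts in each library. Deep counts narrow the interval, so such a gene clears a limit more easily. The shares of all genes run over every gene with at least 10 counts and are not matched to the target genes for depth.

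**Figure D1:**
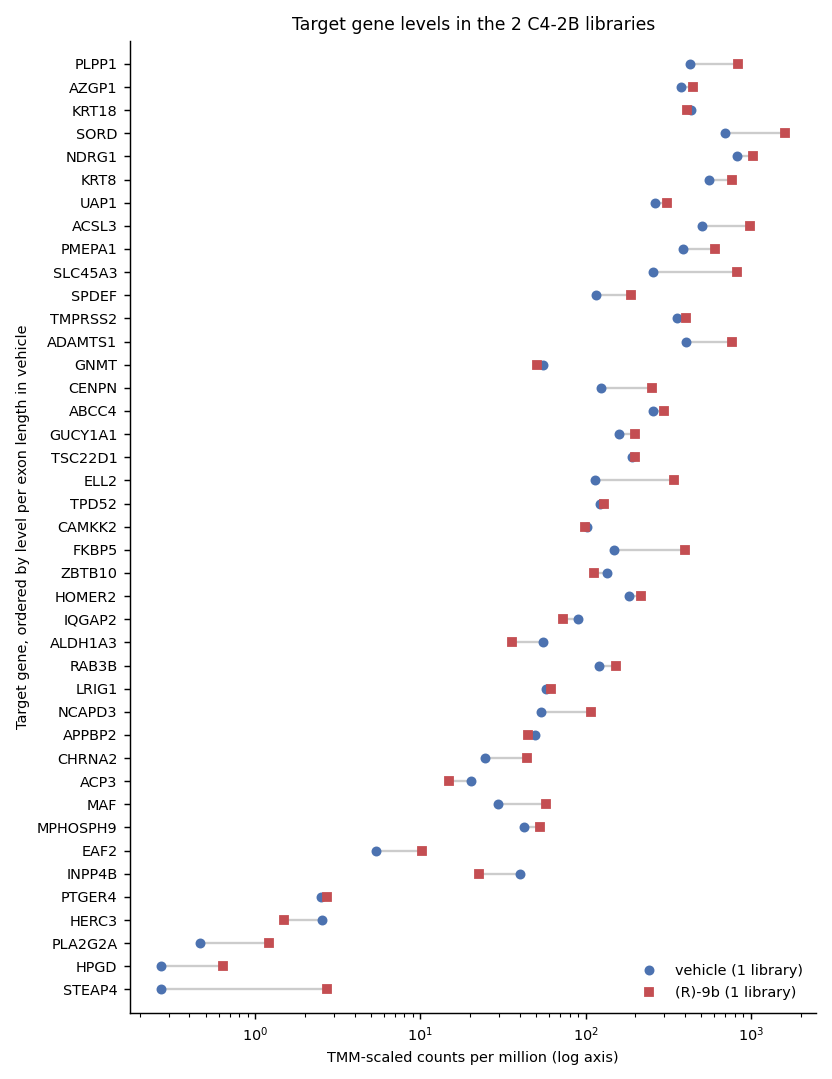
TMM-scaled CPM on a log axis for each of the 41 target genes in the vehicle library (circles) and the (R)-9b library (squares), ordered by level per exon length in vehicle, with a grey line joining each pair. Levels ran from 0.270 CPM for STEAP4 in vehicle to 1616 CPM for SORD in (R)-9b, and no error bar is drawn because each point is 1 library.

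Among the chaperone and protease genes, FKBP5 and ADAMTS1 were higher and TMPRSS2 was not called. FKBP5 (ENSG00000096060, chromosome 6, 35573585 to 35728583) encodes a co-chaperone of HSP90 that binds steroid receptors and is also induced through the glucocorticoid receptor. It had 9847 counts in vehicle and 22544 in (R)-9b, or 147.9 and 399.3 CPM. The log2 ratio was 1.43, and the interval of the ratio itself ran from 2.64 to 2.76. The transcript estimates of 3508 and 8009 gave a log2 ratio of 1.44. FKBP5-201 took 97.8% of the gene's transcript estimates in vehicle and 95.8% in (R)-9b, so a single transcript accounted for most of the reads in both. ADAMTS1, a secreted metalloprotease that cuts proteoglycans, stood at 405.7 and 767.9 CPM, a log2 ratio of 0.92. TMPRSS2 (chromosome 21, 41464551 to 41531116), a membrane serine protease whose androgen-driven promoter is often fused to ERG in prostate cancer, had 23878 and 22793 counts, or 358.6 and 403.7 CPM. Its ratio was 1.13 with an interval from 1.11 to 1.15, well inside the 1.5-fold limit. Not all TMPRSS2 transcripts were in the transcript table, and those listed summed to 5380 and 4619 estimated counts, a log2 ratio of 0.03.

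The secreted products did not move together. PLA2G2A, a secreted phospholipase, had 31 counts in vehicle and 68 in (R)-9b, a ratio of 2.59 with an interval from 1.67 to 4.09, so the call rests on few reads. AZGP1, a zinc-binding glycoprotein of seminal plasma, was abundant at 379.7 and 445.1 CPM, a ratio of 1.17. Reads that match both AZGP1 and its pseudogene AZGP1P1 would be left out, since only uniquely aligned reads were counted. The 2 copies listed had 1670 and 830 counts between them, or 6.61% and 3.30% of those of AZGP1. ACP3, which encodes prostatic acid phosphatase, had 1340 and 843 counts. The ACP3 log2 ratio was -0.43, with an interval from -0.56 to -0.31, and was not called.

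Transporters and receptors held the gene with the highest ratio. STEAP4 (ENSG00000127954, chromosome 7, 88270892 to 88306891), a metalloreductase that reduces iron and copper, had 18 counts in vehicle and 153 in (R)-9b. The ratio was 10.0, with an interval from 6.13 to 17.4. Even so, STEAP4 ranked 41st of 41 in vehicle and 39th in (R)-9b by level per exon length, so it stayed among the least abundant target genes. Its transcript estimates were 12 and 82, and transcripts starting within 100 bases of the start shown above took 100% of them in vehicle and nearly all in (R)-9b. SLC45A3 (ENSG00000158715, chromosome 1, 205657851 to 205680459), which encodes prostein, a prostate membrane protein of a sugar transporter family, had 17030 and 46406 counts, or 255.8 and 821.9 CPM. The ratio was 3.21, with an interval from 3.16 to 3.27, and the gene moved from rank 10 to rank 3 per exon length. Summed SLC45A3 transcript estimates were 6299 and 17113, a log2 ratio of 1.69 beside 1.68 from gene counts.

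CHRNA2, a nicotinic acetylcholine receptor subunit, was higher as well, at 24.6 and 44.2 CPM, a log2 ratio of 0.84. The 4 other genes of the group were not called. ABCC4, an efflux pump for cyclic nucleotides and drugs, stood at 254.2 and 298.7 CPM, a ratio of 1.18 with an interval from 1.15 to 1.20, and its transcript estimates were 5986 and 5898.5. GUCY1A1, a subunit of the soluble guanylate cyclase that senses nitric oxide, stood at 158.3 and 200.4 CPM. LRIG1, a membrane protein that restrains growth factor receptors, stood at 57.6 and 61.3 CPM, and PTGER4, a prostaglandin E receptor, had 167 and 154 counts. For PTGER4 the interval of the log2 ratio ran from -0.20 to 0.45, so at this depth neither direction was detectable.

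**Figure D2:**
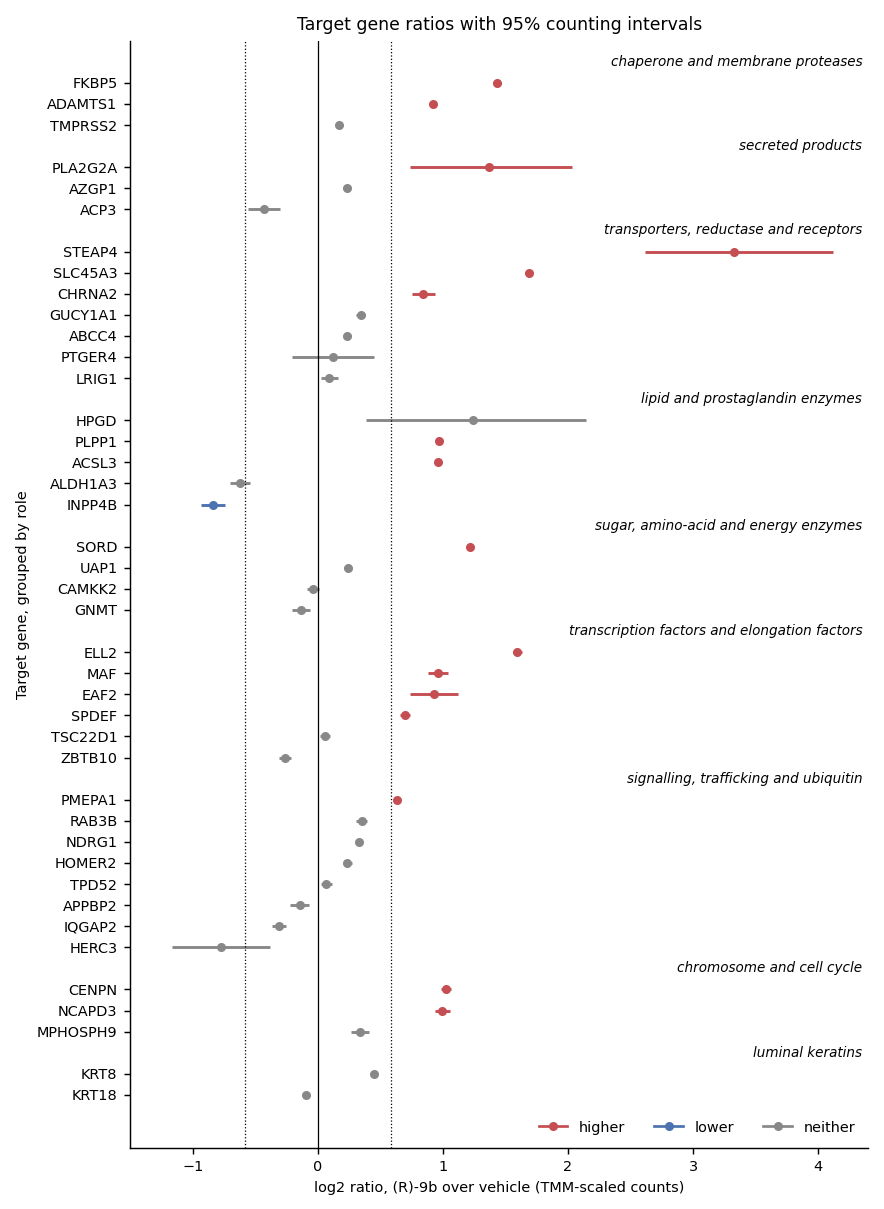
Log2 ratio of TMM-scaled counts, (R)-9b over vehicle, for the 41 target genes grouped by role, with 95% counting intervals as bars that are hidden by the point for deeply counted genes. Dotted lines mark ratios of 1.5 and 1/1.5: 16 genes (red) lie wholly above the upper line, INPP4B (blue) wholly below the lower one, and 24 (grey) are not called. ADAMTS1, a secreted protease, is drawn in the group of chaperone and membrane proteases.

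Lipid enzymes went both ways. ACSL3, which activates long-chain fatty acids, had 33670 counts in vehicle and 55611 in (R)-9b, or 505.7 and 984.9 CPM. The ACSL3 ratio was 1.95, with an interval from 1.92 to 1.97, and its transcript estimates of 12556 and 20695 gave a log2 ratio of 0.97. PLPP1, which removes phosphate from lipids, stood at 426.9 and 834.0 CPM, a log2 ratio of 0.97, and ranked first of the target genes per exon length in both libraries. PLPP1 shares 28.4% of its exon bases with MTREX and RNF138P1. HPGD, which inactivates prostaglandins, had only 18 and 36 counts, and its interval of 1.30 to 4.41 around a ratio of 2.36 did not clear 1.5.

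INPP4B (chromosome 4, 142023160 to 142847432) was lower in (R)-9b. It encodes a phosphatase of phosphoinositides that restrains AKT signalling, and had 2680 counts in vehicle and 1273 in (R)-9b, or 40.3 and 22.5 CPM. The log2 ratio was -0.84, with an interval from -0.93 to -0.74, and the transcript estimates of 924 and 452 gave -0.78. The call was lost when a coefficient of variation of 0.1 per library was added, with an interval from -1.25 to -0.43. ALDH1A3, which makes retinoic acid, had 3683 and 2029 counts. The ALDH1A3 ratio of 0.650 passed 1/1.5 but its interval, from 0.615 to 0.686, did not. ALDH1A3 shares 28.6% of its exon bases with AC015712.2 and AC015712.5.

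Of the enzymes of sugars, amino acids and energy balance, SORD was higher. SORD, the sorbitol dehydrogenase that makes fructose from sorbitol, had 46187 and 91230 counts, or 693.7 and 1616 CPM, which gave the largest count of any target gene in (R)-9b. Its ratio was 2.33, with an interval from 2.30 to 2.36. Its pseudogene SORD2P had 3937 and 7754 counts, 8.52% and 8.50% of those of SORD. Only uniquely aligned reads were counted, so reads that match both would be left out. UAP1, which makes UDP-N-acetylglucosamine for glycosylation, stood at 264.8 and 312.4 CPM, a ratio of 1.18. GNMT, the glycine methyltransferase, stood at 55.4 and 50.5 CPM, a ratio of 0.912. CAMKK2, a kinase that activates AMPK, had 6757 and 5578 counts, or 101.5 and 98.8 CPM, and the interval of its ratio, 0.939 to 1.01, held 1. Its transcript estimates were 2491 and 1980.

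Of 6 transcription and elongation factors, 4 were called higher and none lower. ELL2 (chromosome 5, 95885098 to 95962071), a subunit of the complex that speeds elongation by RNA polymerase II, had 7607 and 19488 counts, or 114.3 and 345.1 CPM. Its ratio was 3.02, with an interval from 2.94 to 3.10, its transcript estimates were 2952 and 7479, and ELL2-201 took 98.0% and 97.1% of its estimates. EAF2, which binds ELL proteins and is known as an androgen-raised gene, had 360 and 580 counts, a log2 ratio of 0.93 with an interval from 0.73 to 1.12. Both partners were thus higher, ELL2 by the wider margin. SPDEF, an ETS factor of luminal epithelium, stood at 116.4 and 188.6 CPM, and MAF, a basic leucine zipper factor, at 29.4 and 57.2 CPM. TSC22D1, a leucine zipper protein of the TGF-β response, stood at 190.8 and 198.5 CPM and was not called. ZBTB10, a zinc finger protein, had 8983 and 6356 counts, a log2 ratio of -0.26 with an interval from -0.31 to -0.21, and transcript estimates of 4074 and 2859.

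Of 8 genes of signalling, trafficking and ubiquitin transfer only PMEPA1 was called. PMEPA1 (chromosome 20, 57648392 to 57711536), a membrane protein that dampens TGF-β signalling, had 25953 and 34149 counts, or 389.8 and 604.8 CPM. Its ratio was 1.55, with an interval from 1.53 to 1.58, the nearest to the limit of the 16, and scaling by total counts ended the call. Its transcript estimates were 9662 and 12818. NDRG1, a cytoplasmic protein raised by androgen, hypoxia and differentiation, had 54719 counts in vehicle, the largest of any target gene there, and 58219 in (R)-9b. The NDRG1 ratio was 1.25, with an interval from 1.24 to 1.27. The transcripts listed for it, which are not all of them, summed to 3185 and 3406.

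RAB3B, a GTPase of secretory vesicles, stood at 120.2 and 153.2 CPM, HOMER2, a scaffold protein, at 183.5 and 216.1 CPM, and TPD52, a vesicle trafficking protein, at 123.0 and 128.9 CPM. All 3 had a ratio between 1 and 1.5. APPBP2, which binds the amyloid precursor protein, stood at 49.6 and 44.8 CPM, and IQGAP2, a cytoskeletal scaffold, had 5993 and 4103 counts. The IQGAP2 log2 ratio was -0.31, with an interval from -0.37 to -0.25. HERC3, a ubiquitin ligase, had 169 and 84 counts, a log2 ratio of -0.77 with an interval from -1.17 to -0.38.

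HERC3 differed between the 2 deposited readouts. The transcript table gave it 2383 estimated counts in vehicle and 2478 in (R)-9b, a log2 ratio of 0.30, the opposite direction to its gene counts. That is 14.1 estimated counts per gene count in vehicle, whereas the median of the 31 target genes with all their transcripts listed was 0.373. HERC3 shares 6.57% of its exon bases with AC098582.1 on the same strand, and the part of such overlaps in the low gene count was not tested. Of the 31 genes, 30 had both readouts on the same side of a ratio of 1, and 28 agreed to within 0.15 on the log2 scale. The other two beyond 0.15 were STEAP4 and PLA2G2A, both with few counts. For SORD, IQGAP2, ACP3 and ALDH1A3 only some transcripts were listed, with sums of 13819 and 25604 for SORD, 890 and 532 for IQGAP2, 9.28 and 23.7 for ACP3, and 308 and 193 for ALDH1A3. Those of ACP3 are a small part of its reads and had the opposite direction to its gene counts.

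**Figure D3:**
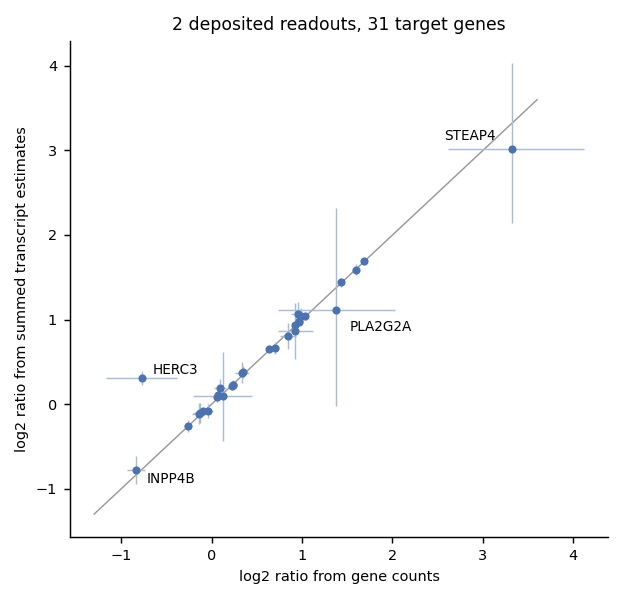
Log2 ratio of (R)-9b over vehicle from gene counts (horizontal axis) and from summed transcript estimates (vertical axis) for the 31 target genes with every transcript listed, with 95% counting intervals and a line where both are equal. HERC3 lies farthest from the line, at -0.77 and 0.30, followed by STEAP4, at 3.33 and 3.02, and PLA2G2A, at 1.37 and 1.11, and the other 28 genes lie within 0.15 of it.

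The chromosome and cell cycle genes included 2 called higher of 3. CENPN, a kinetochore protein that recognises the centromeric nucleosome, had 8274 and 14296 counts, or 124.3 and 253.2 CPM. The CENPN ratio was 2.04, with an interval from 1.98 to 2.09, and transcript estimates of 6367 and 11009 gave a log2 ratio of 1.04 beside 1.03. CENPN shares 22.8% of its exon bases with other genes, CMC2 among them, on the opposite strand, and whether the counting used strand is not given in the sources used here. NCAPD3, a condensin subunit that compacts chromosomes, stood at 54.1 and 107.6 CPM, a log2 ratio of 0.99. MPHOSPH9, a centriole protein, stood at 42.2 and 53.3 CPM and was not called.

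The luminal keratins KRT8 and KRT18, which pair in the same filament, were not called. KRT8 stood at 561.2 and 767.4 CPM, a log2 ratio of 0.45, and KRT18 at 435.9 and 408.7 CPM, a log2 ratio of -0.09. The partners thus lay on either side of a ratio of 1. The genes lie side by side on chromosome 12 and share 525 exon bases on opposite strands, and both have many pseudogenes. Those of KRT8 had counts equal to 9.67% and 8.70% of its own, and those of KRT18 to 8.27% and 8.36%.

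Among transcripts with over 200 estimated counts in a library, from genes with all transcripts listed, the share of the gene differed most in TPD52. TPD52-202 took 59.6% in vehicle and 76.0% in (R)-9b, whereas TPD52-209 had 1521 and 486 estimated counts, or 23.0% and 8.07%. The total for TPD52 differed by a log2 ratio of only 0.11. In UAP1, UAP1-201 took 19.3% and 29.2%, and UAP1-204 took 34.6% and 25.1%. CAMKK2-205 was listed at 288 and 0 estimated counts. In INPP4B, INPP4B-214 took 24.9% and 38.9%, from 230 and 176 estimated counts. An estimate divides reads among transcripts that share exons, and its own error is not in the table.

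Compared per exon length, PLPP1 was the most abundant target gene in both libraries and SORD moved from rank 4 to rank 2. AZGP1 moved from rank 2 to rank 4. Of the 10 target genes with the highest level per length in vehicle, 5 were called higher, and of the 11 with the lowest, 5 were higher and 1 was lower, so calls came from both ends of the range. The target genes together made up 7799 and 12175 CPM of the vehicle and (R)-9b libraries, a ratio of 1.56.

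**Figure D4:**
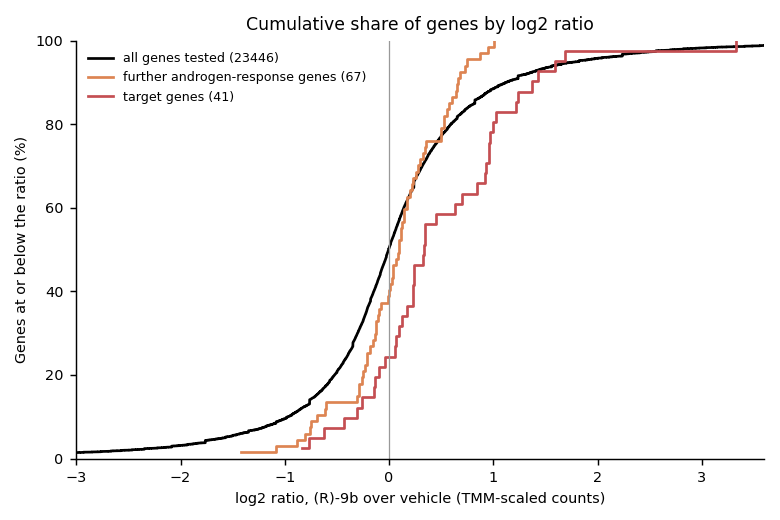
Cumulative share of genes (%) at or below each log2 ratio, (R)-9b over vehicle, for the 41 target genes, 67 further androgen-response genes and all 23446 genes tested. The curve of the target genes lies to the right, with a median of 0.34 beside 0.09 and -0.005, and 10 of the 41 target genes lie below 0.

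Further genes known to respond to androgen, none of them a target gene above, were set beside these. Of 67 further androgen-response genes, all of them tested, 8 were higher (11.9%) and 6 lower (8.96%), with a median log2 ratio of 0.09. These shares lie near the 8.71% and 7.74% of all genes. The 5 with the highest interval end nearest 0 were HMGCS1 and IDI1, enzymes of the mevalonate pathway, with log2 ratios of 1.01 and 0.95, the cyclin CCND1 (0.73), B2M (0.68), the light chain of class I molecules, and the kinase MAK (0.87). Those with the lowest included DNAJB9 (-1.42), a chaperone of the endoplasmic reticulum, SEC24D (-1.08), a coat protein of secretory vesicles, the kinase RPS6KA3 (-0.88) and the amino acid transporter SLC38A2 (-0.76). The further list thus held genes of sterol synthesis among the highest and of the secretory pathway among the lowest. A stress list of HSPA5, DDIT3, ATF3, TRIB3, ASNS, CHAC1, HERPUD1 and SESN2 was lower in (R)-9b for 8 of 8 genes, with a median log2 ratio of -2.22, and its part in the results for androgen-response genes was not tested.

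The kallikreins KLK2 and KLK3, classical androgen-driven proteases, had 19192 and 146597 counts in vehicle and 44253 and 297728 in (R)-9b, log2 ratios of 1.44 and 1.26. Both stood with the highest of the target genes. They are close paralogs, and reads that match both would be left out of the counts. Among the listed cofactors of the receptor, which included FOXA1, HOXB13 and GATA2, only GRHL2 was called, higher with a log2 ratio of 0.90.

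Genes that androgen lowers, and genes shared with the glucocorticoid receptor, were set beside the target genes. Of 7 genes lowered by androgen, 0 were higher, beside 8.71% of all genes, and 2 were lower (28.6%), beside 7.74%. The 2 were OPRK1, with 46 and 2 counts, and PEG3, with 495 and 234. Intervals of UGT2B17 (log2 ratio 0.46) and CAMK2N1 (0.28) lay above a ratio of 1, and those of 3 genes lay below it. Of 7 glucocorticoid receptor genes, 0 were higher and 3 were lower (42.9%), beside the same shares of all genes. The 3 were DUSP1, TSC22D3 and the receptor NR3C1, with log2 ratios of -0.97, -0.73 and -2.54. The median of that list was 0.09, on the other side of 0 from its calls. FKBP5, a target of both receptors, thus differed in direction from TSC22D3 and DUSP1. The intervals of the 4 others, SGK1 (log2 ratio 0.75), ZBTB16 (0.50), PER1 (0.12) and KLF9 (0.09), lay above a ratio of 1, as did that of FKBP5. NR3C1 had 96 counts in vehicle and 14 in (R)-9b.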

How the data were processed

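RNA sequencing of C4-2B cells was analysed for 2 libraries, vehicle and (R)-9b, grouped by the treatment in the labels. The authors deposited gene counts, which are whole numbers without normalization, from reads aligned to GRCh38 with Ensembl release 101, keeping uniquely aligned, unambiguous reads. Their paper and the submitters' processing notes name different STAR versions. The notes give 2.5.1a, and also name featureCounts 1.4.6-p5 and Salmon 0.8.2. The strand setting is not given in the sources used here. The authors also deposited the same genes as CPM and as moderated log2 CPM, and a transcript table with CPM. The authors also deposited estimated counts per transcript, from a tool not tied to the table in the sources used here. CPM and log2 CPM of genes were alternatives only, and transcript CPM and log2 CPM were set aside. Columns of other samples numbered 0.

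Of 60871 lines, 200 repeated a gene and were dropped. Among genes with 1 to 20 counts, 72.2% and 70.3% of counts were even, so both mates of a pair may have been counted, and intervals may be too narrow. Counts were scaled by TMM (edgeR 4.0.16, R 4.3.3), with factors of 1.02 and 0.979, and estimated counts were rounded and scaled in the same way. The log2 ratio has an exact (Clopper-Pearson) 95% interval from the binomial share of both counts (scipy 1.17.1). It compares these 2 libraries and not the conditions. A floor of 3 counts equals 0.0451 CPM for vehicle and 0.0531 for (R)-9b. Levels between genes were compared as counts per exon base, with exon lengths and gene positions from GENCODE 29 on GRCh38, an older annotation of the build of the files, for 58453 genes. Promoters came from RefSeq tables. The intervals were tested on data simulated with counting error only. That test does not cover spread between cultures, PCR copies or mates counted together.

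The target genes and lists were chosen with earlier results of these data known. All target genes are named. Intervals and transcript values are given for FKBP5, SLC45A3, TMPRSS2, NDRG1, STEAP4, PMEPA1, ABCC4, ACSL3, CAMKK2 and ELL2 and for the 6 genes with the highest and the 6 with the lowest interval end nearest 0. The same rule gave 5 and 5 of the further list. Some genes that these rules or lists cover are not reported here. Others were named after their values were seen. Alternatives were scaling, count source, minimum, call rule and added error.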

Additional observations from a re-analysis of the deposited data

How the results depend on the processing

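The median log2 ratio of the target genes stayed between 0.28 (deposited CPM) and 0.40 (total counts without mitochondrially encoded genes) over 14 alternatives. Over the 15 alternatives for the number of target genes higher, a coefficient of variation of 0.1 per library, added to the interval, left 8 higher and 0 lower (5.35% and 4.25% of all genes), losing INPP4B and ACSL3, ADAMTS1, CHRNA2, EAF2, MAF, PLPP1, PMEPA1 and SPDEF, and left 1 higher and 2 lower of the further list. A limit of 2-fold left 5 higher and 0 lower target genes and 0 and 2 further genes, and a limit of 1 gave 30 and 9, and 36 and 25. Total counts, which shift every log2 ratio by -0.060, gave 2 target genes lower and 4 further genes higher, and PMEPA1 was lost. The point ratio alone gave 3 lower. Without the 20 target genes that share exon bases with another gene, chosen after seeing the data, 8 of 21 were higher and 0 lower. With a minimum of 1000 counts, also chosen after seeing the data, 13 were higher and 1 lower. The share of all genes called at that minimum is not given here. Summed transcript estimates lost EAF2 and PLA2G2A and gave 14 higher, and halved counts lost PLA2G2A. The direction of 4 uncalled genes changed: TSC22D1 with total counts and both deposited CPM scales, CAMKK2 without mitochondrially encoded genes, and ACP3 and HERC3 with transcript estimates. The causes were not tested beyond what each alternative changes by construction. No paired analysis was possible because each condition had 1 library. Depth limits STEAP4, PLA2G2A, HPGD, PTGER4 and HERC3, which had under 200 counts in each library.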
